A study of Homo sapiens with 6 samples.

Results

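Accessible chromatin was examined around 6 NF-kB feedback and anti-inflammatory genes: IRAK3, BIRC3, TNFAIP3, TNIP1, NFKBIA and ZFP36. Peaks called by DNase-seq were taken where any base lay within 100 kb of the gene starts, which in hg19 are IRAK3 at 66582994 on chromosome 12, BIRC3 at 102188181 on chromosome 11, TNFAIP3 at 138188325 on chromosome 6, TNIP1 at 150467221 on chromosome 5, NFKBIA at 35873960 on chromosome 14 and ZFP36 at 39897487 on chromosome 19. Peaks of different libraries that shared at least 1 bp were joined to a region. This gave 93 regions of the 81216 in the genome. The cells were A549, a human lung adenocarcinoma line grown to near confluence, and each treatment lasted 1 h. In 3 libraries they had received 100 nM dexamethasone, a synthetic glucocorticoid, and in the other 3 libraries 0.02% ethanol, its vehicle. The labels number the libraries 1 to 3 within each treatment and leave unsaid if these were separate cultures, and their spread may thus be technical.

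NF-kB is a family of transcription factors that switches on inflammatory genes once its inhibitor, the protein encoded by NFKBIA, is degraded. NF-kB in turn induces NFKBIA, TNFAIP3, TNIP1 and BIRC3, which closes feedback loops. Glucocorticoids act through the glucocorticoid receptor, a ligand-activated transcription factor, and are used to treat inflammation of the airways. DNase I cuts DNA where nucleosomes are displaced, so a DNase-seq peak marks a promoter, an enhancer or another site open to proteins.

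The 6 genes had 7 tabled starts in RefSeq (GRCh38.p14), and the 250 bases before 1 start of each gene are shown here, so that the motifs before these starts can be read beside the peaks at the gene starts. For TNIP1, which has 2 tabled starts, the one with a motif match is shown. Capitals mark matches to the kappaB motif, the sequence bound by NF-kB, on either strand.
NFKBIA, chr14:35404750-35404999, minus strand: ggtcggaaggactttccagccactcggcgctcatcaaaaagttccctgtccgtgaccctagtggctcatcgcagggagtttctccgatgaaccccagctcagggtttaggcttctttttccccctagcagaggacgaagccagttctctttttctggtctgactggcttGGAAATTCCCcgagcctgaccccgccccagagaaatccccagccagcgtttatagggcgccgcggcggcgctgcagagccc
TNFAIP3, chr6:137867009-137867258, plus strand: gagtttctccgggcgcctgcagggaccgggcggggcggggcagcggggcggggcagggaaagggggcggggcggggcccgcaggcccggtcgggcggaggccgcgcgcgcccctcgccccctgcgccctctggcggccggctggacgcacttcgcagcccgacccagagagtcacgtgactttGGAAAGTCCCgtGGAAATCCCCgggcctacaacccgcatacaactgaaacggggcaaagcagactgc
TNIP1, chr5:151081035-151081284, minus strand: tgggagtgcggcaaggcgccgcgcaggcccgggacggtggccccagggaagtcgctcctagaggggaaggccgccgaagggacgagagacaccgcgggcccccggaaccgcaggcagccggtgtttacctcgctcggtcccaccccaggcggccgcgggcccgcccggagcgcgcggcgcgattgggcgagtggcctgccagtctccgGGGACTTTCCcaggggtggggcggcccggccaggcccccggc
BIRC3, chr11:102317234-102317483, plus strand: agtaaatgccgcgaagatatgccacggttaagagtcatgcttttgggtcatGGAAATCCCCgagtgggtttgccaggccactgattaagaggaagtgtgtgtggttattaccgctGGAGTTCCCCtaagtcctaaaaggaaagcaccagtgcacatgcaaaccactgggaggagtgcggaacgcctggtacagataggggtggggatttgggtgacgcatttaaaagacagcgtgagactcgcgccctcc
IRAK3, chr12:66188964-66189213, plus strand: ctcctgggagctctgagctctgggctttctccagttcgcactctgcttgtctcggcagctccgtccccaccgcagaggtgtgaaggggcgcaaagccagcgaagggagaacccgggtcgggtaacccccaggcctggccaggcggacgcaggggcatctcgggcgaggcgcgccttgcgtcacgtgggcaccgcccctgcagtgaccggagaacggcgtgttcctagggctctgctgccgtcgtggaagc
ZFP36, chr19:39406597-39406846, plus strand: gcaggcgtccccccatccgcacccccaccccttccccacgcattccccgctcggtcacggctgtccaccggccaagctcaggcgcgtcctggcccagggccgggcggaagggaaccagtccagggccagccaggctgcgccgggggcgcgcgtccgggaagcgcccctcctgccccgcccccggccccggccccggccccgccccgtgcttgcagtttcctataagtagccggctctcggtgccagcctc

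The kappaB motif was found before the starts of 4 of the 6 genes, 6 matches in all. NFKBIA had 1 match, whose first base lay 81 bases before the start. TNFAIP3 had 2 matches, which began 67 and 55 bases before the start. TNIP1 had 1 match, 42 bases before the start shown, and none before its other tabled start. BIRC3 had 2 matches, at 199 and 135 bases, and the windows of IRAK3 and ZFP36 had none. Counted by window, 4 of the 7 held a match, against 9.96% of 35116 such windows in the table. The inner part of the glucocorticoid response element, to which the glucocorticoid receptor binds, was searched as ACANNNTGT, and the AP-1 motif as TGANTCA, on both strands. Neither was found in the 7 windows, and 4.61% and 6.57% of all windows hold them. The full palindromic element contains ACANNNTGT, so it was not found either. A match is a run of letters and not a measured binding site. The windows were found by gene symbol, and their positions were not carried over to hg19.

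The libraries were alike in their overall yield. There were 58360, 60646 and 58677 peaks with dexamethasone and 58281, 60453 and 61344 with ethanol. The lists carry no read counts, so sequencing depth is unknown. The fold enrichment of a peak is the authors' value over the caller's own background for that library. Over the 39934 regions called in every library, its median was 8.58, 8.86 and 8.23 in the dexamethasone libraries and 8.43, 8.76 and 8.62 in the ethanol libraries. Dexamethasone replicate 3 had the lowest median and the fewest covered bases, 21.8 Mb. No library had a peak over 292 kb around 22 Mb on chromosome 9, in the 9p21 band known to be deleted in A549, whereas the median gap between regions on that chromosome was 11.7 kb. More cells with an open site and a more open site per cell cannot be told apart in such data.

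Most of the accessible chromatin near these genes was present with and without dexamethasone. Of the 93 regions, 52 (55.9%) were called in all 6 libraries, against 49.2% of all regions, and 14 (15.1%) in 1 library only, against 18.9%. The dexamethasone libraries called 75, 77 and 67 of the 93 regions, and the ethanol libraries 67, 70 and 68. These are 80.6%, 82.8% and 72.0% with dexamethasone and 72.0%, 75.3% and 73.1% with ethanol, against 69.1%, 72.1% and 69.1% of all regions with dexamethasone and 68.8%, 71.6% and 72.6% with ethanol. Dexamethasone replicates 1 and 2 called the most of the 93 regions, while dexamethasone replicate 3 lay within the range of the ethanol libraries. The ZFP36 window was the densest, with 29 regions, and the TNFAIP3 window the sparsest, with 4. NFKBIA had 20 regions, TNIP1 18, BIRC3 13 and IRAK3 9. The windows also take in other genes. In RefSeq, 10 further protein-coding genes lie within 100 kb of the ZFP36 start, among them PAF1, MED29 and PLEKHG2, and none lies so close to the TNFAIP3 start. BIRC2, a close relative of BIRC3, neighbours BIRC3. A region was therefore not assigned to a gene.

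**Figure D1:**
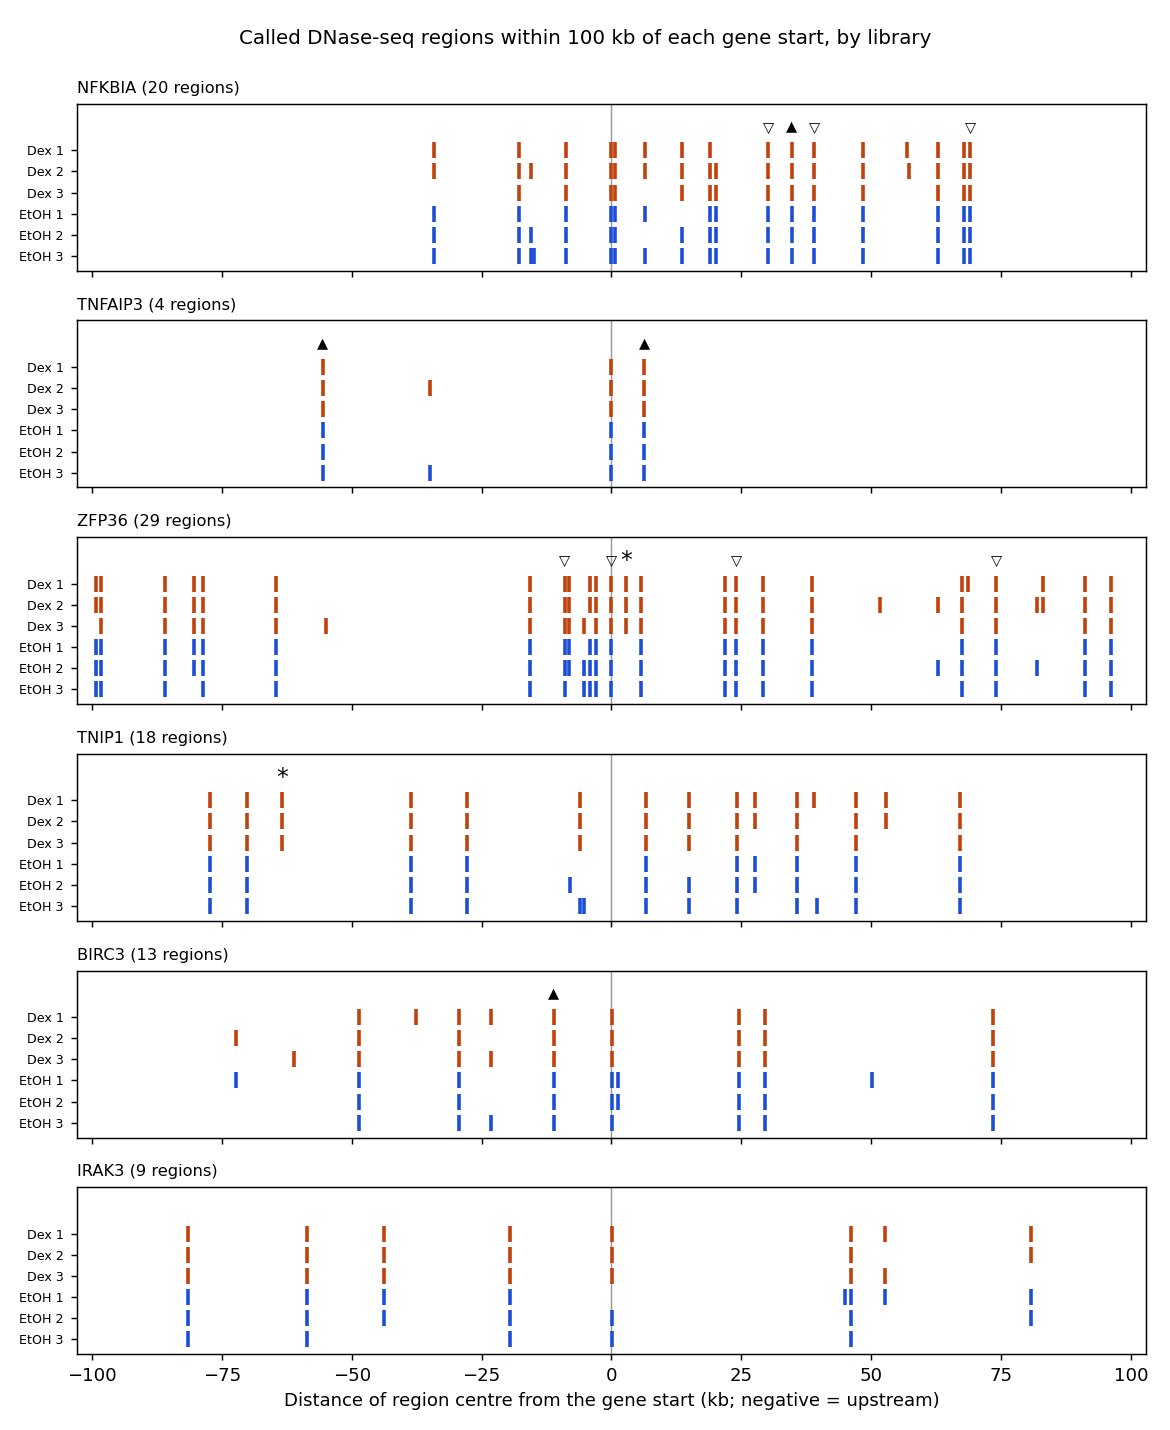
Regions called by DNase-seq in each library, 1 panel per gene, against the distance of the region centre from the gene start in kb (negative is upstream), with the 3 dexamethasone libraries above the 3 ethanol libraries. A star marks the 2 regions called in all dexamethasone and no ethanol libraries. Among regions called in all 6 libraries, filled triangles mark the 4 with a higher fold in every dexamethasone library and open triangles the 7 with a lower one.

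At none of the 6 genes did the number of regions called pass a test of treatment. In the TNIP1 window, 15, 14 and 12 regions were called with dexamethasone and 10, 12 and 13 with ethanol, means of 13.7 ± 1.5 and 11.7 ± 1.5 (SD, n = 3 each, exact two-sided permutation p = 0.3). In the ZFP36 window, 24, 26 and 22 regions were called with dexamethasone and 21, 24 and 20 with ethanol (exact permutation p = 0.3). The ranges of the treatments overlapped at both genes. The IRAK3 window held 8, 7 and 7 regions with dexamethasone and 8, 7 and 5 with ethanol (exact permutation p = 0.9). The NFKBIA window held 16, 18 and 14 regions with dexamethasone and 15, 16 and 18 with ethanol (exact permutation p = 1). TNFAIP3 averaged 3.33 regions under both treatments and BIRC3 8.67 (exact permutation p = 1 each). The smallest p that 3 libraries against 3 can give is 0.1.

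Bases covered by peaks gave a like picture. The TNIP1 window had 5294, 5185 and 4382 covered bases with dexamethasone and 3765, 4348 and 4838 with ethanol (exact permutation p = 0.2). The TNFAIP3 window had 1400, 1583 and 1177 bases with dexamethasone and 1138, 1103 and 1323 with ethanol (exact permutation p = 0.2). Over the 6 genes and both measures, 12 tests, the exact p ranged from 0.2 to 1, with no adjustment made.

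**Figure D2:**
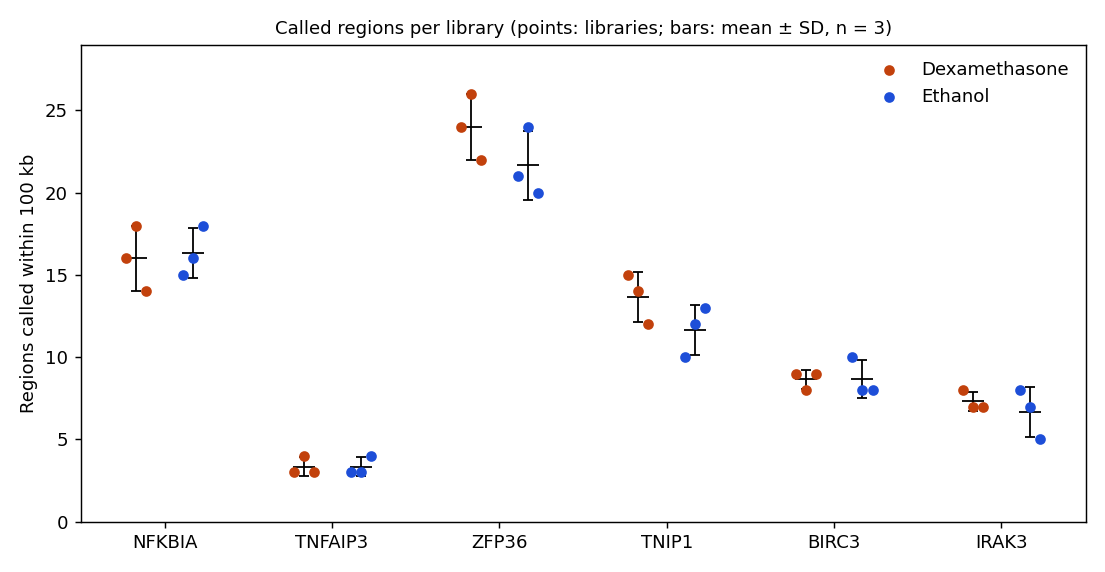
Number of regions called within 100 kb of each gene start (vertical axis) in each library, with the mean and SD of 3 libraries, dexamethasone left of ethanol. The treatments overlap at every gene, and TNIP1 averages 13.7 regions with dexamethasone and 11.7 with ethanol.

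The gene starts themselves were open under both treatments at BIRC3, TNFAIP3, NFKBIA and ZFP36, where a region covered the start in all 6 libraries. IRAK3, which encodes an inhibitory member of the interleukin-1 receptor-associated kinases, differed. A region at chromosome 12, 66582765 to 66583295, covered its start and was called in 3 of 3 dexamethasone and 2 of 3 ethanol libraries. Its fold enrichment was 8.88, 10 and 6.53 with dexamethasone, against no call in ethanol replicate 1 and 5.53 and 4.39 in ethanol replicates 2 and 3. Every dexamethasone value was above every ethanol value, with means of 8.47 ± 1.8 (SD, n = 3) and 4.96 ± 0.81 (SD, n = 2 libraries with a call). Without ethanol replicate 1, 9.45% of the regions in the genome called in every remaining library had this order of folds. The IRAK3 start region was not followed through the alternatives of the closing section. Within its own list, the IRAK3 peak stood at the 60.5th, 67.1st and 43.1st percentile of −log10 q with dexamethasone and at the 23.3rd and 6.03rd in the ethanol libraries that called it. A missing call marks a signal under the threshold of the peak caller and does not show a closed promoter. Summits lay between 31 bases upstream and 87 bases downstream of the start.

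At BIRC3, which encodes a ubiquitin ligase of the tumour necrosis factor receptor complex, the start region at chromosome 11, 102187960 to 102188499, had folds of 9.97, 9.28 and 7.58 with dexamethasone and 7.11, 6.39 and 8.33 with ethanol. Ethanol replicate 3 lay above dexamethasone replicate 3, so the treatments overlapped, with means of 8.94 ± 1.2 and 7.28 ± 0.98 (SD, n = 3 each). TNFAIP3 encodes A20, a ubiquitin-editing enzyme that shuts off NF-kB signalling. Its start region, at chromosome 6, 138187985 to 138188675, was the strongest of the 5 regions that cover a start. Folds there were 13.2, 15.7 and 13.5 with dexamethasone and 14.9, 14.6 and 14.4 with ethanol, and the ethanol values lay inside the range of the dexamethasone values.

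At NFKBIA and ZFP36 the mean fold over the start was lower with dexamethasone, and at NFKBIA the treatments overlapped. NFKBIA encodes IkB-alpha, which holds NF-kB in the cytoplasm. There, the region over the start at chromosome 14, 35873792 to 35874209, had folds of 3.99, 5.68 and 4.63 with dexamethasone and 5.78, 5.54 and 6.87 with ethanol, and dexamethasone replicate 2 lay above ethanol replicate 2. A stronger region 0.69 kb inside the gene reached 7.81 ± 0.63 with dexamethasone and 8.62 ± 0.70 with ethanol (SD, n = 3 each). The treatments overlapped in that region as well. ZFP36 encodes tristetraprolin, which binds AU-rich elements of inflammatory mRNAs and speeds their decay. Its start region, at chromosome 19, 39897263 to 39897660, had folds of 3.47, 3.68 and 3.26 with dexamethasone and 3.94, 4.22 and 4.41 with ethanol, so that all dexamethasone values lay below all ethanol values.

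No peak covered the TNIP1 start used here. TNIP1 encodes ABIN-1, which binds A20 and ubiquitin chains. The nearest region, 5.27 kb upstream, was called in ethanol replicate 3 alone. The nearest region called in all libraries lay 6.69 kb downstream, at chromosome 5, 150460082 to 150460977, with folds of 9.003, 10.3 and 8.0 with dexamethasone and 9.91, 10.6 and 9.32 with ethanol, which overlap. In RefSeq (GRCh38.p14), the start whose sequence is shown above lies 6.65 kb inside the outermost end of the gene. Whether that start falls in this region was not tested, since the builds differ.

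**Figure D3:**
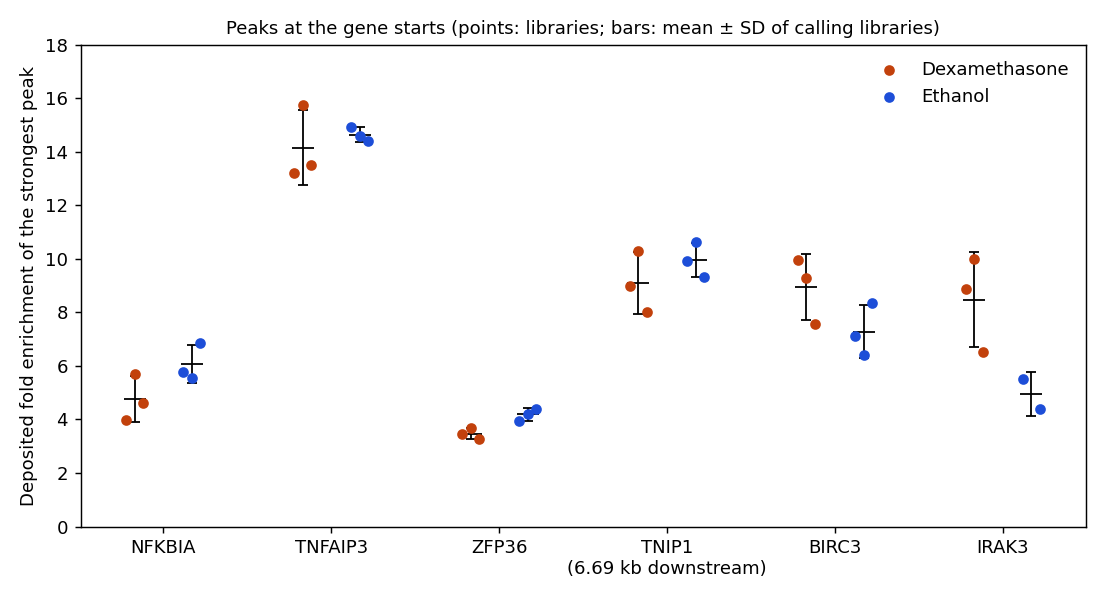
Deposited fold enrichment (vertical axis) of the strongest peak at each gene start in each library, with mean and SD of the libraries that called it, dexamethasone left of ethanol. For TNIP1 the nearest region called in all libraries is shown, and for IRAK3 ethanol replicate 1 has no peak. The treatments do not overlap at ZFP36 or among the calling libraries at IRAK3.

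Away from the starts, the regions with a higher fold in every dexamethasone library than in any ethanol library lay near BIRC3, TNFAIP3 and NFKBIA. There were 4 of them among the 52 regions called in all libraries (7.69%), against 5.73% of such regions in the genome. The opposite pattern, a lower fold in every dexamethasone library, was seen in 7 regions (13.5%), against 5.59%. Neither share is tested, and the folds belong to lists with their own backgrounds, so they describe the regions and do not measure a change. With 1 library fewer, values separate more easily, near these genes and in the genome. The count of 4 was 13 without dexamethasone replicate 3, 9 without ethanol replicate 1 and 7 without ethanol replicate 2, where the genome had 16.8%, 9.45% and 10.9%. The count of 7 was 14 without dexamethasone replicate 2 and 13 without ethanol replicate 1, where the genome had 12.4% and 11.9%. These counts were not turned into shares, and the set of regions called in every remaining library also changes.

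The highest ratio among the 52 regions was found 11.1 kb upstream of BIRC3, at chromosome 11, 102176708 to 102177406. The fold was 8.84, 10.17 and 10.04 with dexamethasone and 6.34, 5.70 and 4.84 with ethanol. All dexamethasone libraries lay well above all ethanol libraries, with means of 9.68 ± 0.73 and 5.63 ± 0.75 (SD, n = 3 each) and a ratio of 1.72. A ratio as high was found in 0.103% of the regions called in all libraries. The −log10 q was 29.7, 32.99 and 37.3 with dexamethasone and 12.997, 9.78 and 6.79 with ethanol. Within their lists the peaks stood at the 64.3rd, 67.5th and 76.0th percentile with dexamethasone and at the 33.7th, 20.7th and 6.87th with ethanol. The BIRC3 region was thus above the middle of the list in each dexamethasone library and in the lower part in each ethanol library. Peaks there spanned 650, 413 and 664 bases with dexamethasone and 280, 528 and 297 bases with ethanol, where the 528 bases of ethanol replicate 2 were split over 2 peaks. The strongest summits of the 6 libraries lay within 34 bases of each other. The other regions near BIRC3 that were called in every library had ratios from 0.901 to 1.23, the highest of them at the start. The 2 strongest, 48.7 kb upstream (16.8 ± 0.94 with dexamethasone, 16.0 ± 2.2 with ethanol) and 29.7 kb downstream (13.3 ± 3.8 with dexamethasone, 12.7 ± 0.73 with ethanol; SD, n = 3 each), overlapped between treatments.

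When a library had to cover at least 50% of the region to count, the BIRC3 region was called in 3 dexamethasone libraries and 1 ethanol library. A weaker region 1.24 kb downstream of the BIRC3 start was called in 2 ethanol and no dexamethasone libraries, with folds of 4.69 and 4.95.

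TNFAIP3 had 3 regions called in all libraries, and the folds at both distal ones were higher in every dexamethasone library. This is 66.7%, against 5.73% of such regions in the genome, but it rests on 3 regions and was not tested. The region 6.31 kb downstream of the start, at chromosome 6, 138194391 to 138194885, had folds of 10.97, 11.4 and 12.4 with dexamethasone and 9.67, 7.86 and 9.33 with ethanol. The lowest dexamethasone value was above the highest ethanol value, and the ratio of means was 1.296, which 1.68% of the regions called in all libraries reached. Peaks covered 452, 461 and 375 bases there with dexamethasone and 318, 259 and 251 bases with ethanol, so the widths did not overlap either. The region 55.6 kb upstream, at chromosome 6, 138132579 to 138132900, had folds of 10.9, 10.6 and 10.4 with dexamethasone and 7.87, 9.07 and 9.14 with ethanol. Its ratio was 1.22, reached by 3.50% of such regions, and its covered bases overlapped, with 268, 274 and 270 in dexamethasone libraries and 298, 252 and 290 in ethanol libraries.

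The NFKBIA window held regions of both kinds within a short stretch downstream of the gene. The region 34.8 kb downstream, at chromosome 14, 35838922 to 35839488, had folds of 7.10, 6.45 and 5.89 with dexamethasone and 5.85, 4.08 and 3.61 with ethanol. Dexamethasone replicate 3 and ethanol replicate 1 were nearly equal, and the ratio of means was 1.44, reached by 0.531% of the regions called in all libraries. By −log10 q the treatments overlapped there, with 45.9, 31.8 and 23.2 with dexamethasone and 25.0, 11.4 and 8.41 with ethanol. The flanking regions went the other way. The region 39.1 kb downstream had folds of 4.28, 4.71 and 5.57 with dexamethasone and 5.96, 7.36 and 6.04 with ethanol. Its ratio was 0.752, and 1.22% of the regions called in all libraries had one as low. The region 30.1 kb downstream had 8.77, 5.99 and 9.36 with dexamethasone and 9.80, 9.68 and 9.57 with ethanol, and its order between treatments was lost when ranks or −log10 q took the place of the fold. A further region of this kind lay 69.1 kb downstream, with 3.99 ± 0.23 with dexamethasone and 4.69 ± 0.24 with ethanol (SD, n = 3 each). Ratios as low as those 30.1 and 69.1 kb downstream were found in 5.29% and 7.44% of the regions called in all libraries.

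**Figure D4:**
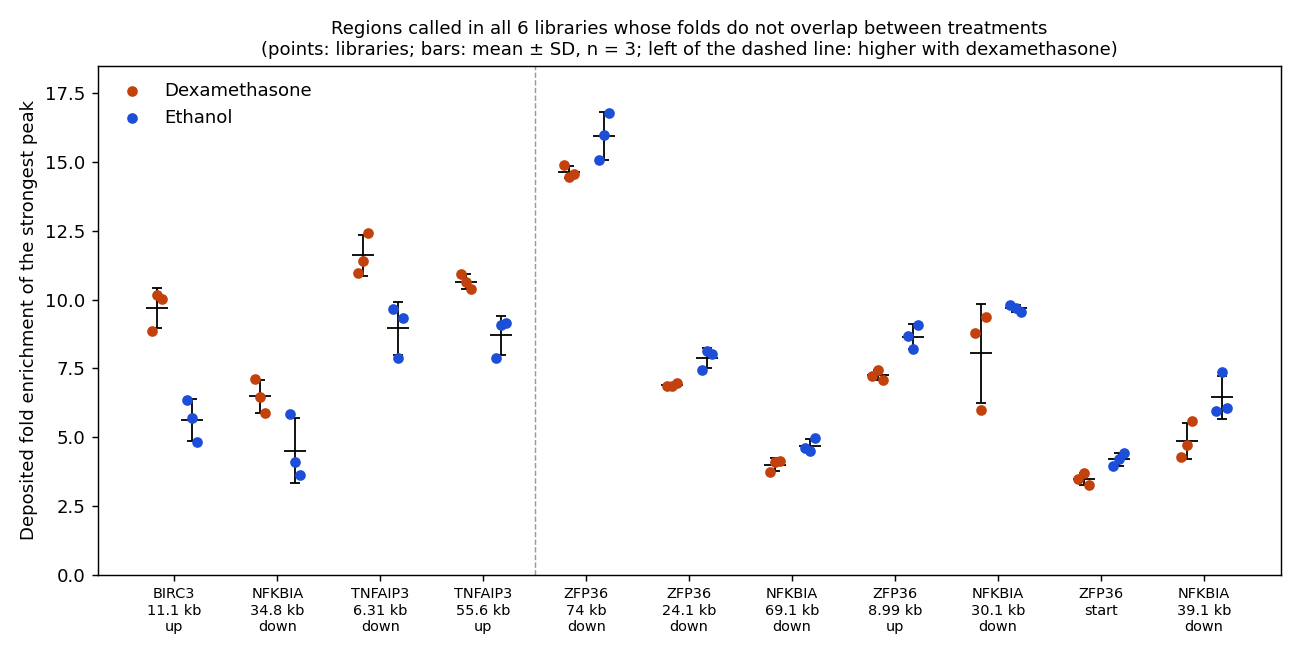
Deposited fold enrichment (vertical axis) of the strongest peak in each library at the 11 regions called in all 6 libraries whose values do not overlap between treatments, with mean and SD (n = 3), dexamethasone left of ethanol and regions ordered by the ratio of means. The BIRC3 region 11.1 kb upstream stands first, with a ratio of 1.72, and the NFKBIA region 39.1 kb downstream last, with 0.752.

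At ZFP36 the regions that did not overlap between treatments were all lower with dexamethasone. They numbered 4 of the 17 called in all libraries (23.5%, against 5.59% of such regions in the genome), a share that was not tested. Besides the start, they lay 8.99 kb upstream (7.25 ± 0.18 with dexamethasone, 8.65 ± 0.45 with ethanol), 24.1 kb downstream (6.89 ± 0.077 with dexamethasone, 7.86 ± 0.36 with ethanol) and 74.0 kb downstream (14.6 ± 0.22 with dexamethasone, 15.9 ± 0.86 with ethanol; SD, n = 3 each). The ratios were 0.838, 0.876 and 0.917, and the last of these overlapped by −log10 q. Ratios as low were found in 5.95%, 10.8% and 19.1% of the regions called in all libraries, and in 5.14% for the start. The region 74.0 kb downstream was also among the strongest of the window, with a mean percentile of 99.5. The region with the highest mean fold, 38.7 kb downstream, overlapped between treatments, with 16.2 ± 0.98 with dexamethasone and 16.0 ± 0.98 with ethanol (SD, n = 3 each).

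Sites called only after dexamethasone were few. Of the 93 regions, 2 (2.15%) were called in all dexamethasone and no ethanol libraries, against 1.10% of all regions, and none had the reverse pattern, against 0.662%. With 2 regions this share cannot be set apart from the background. Without dexamethasone replicate 3 the count was 4, with 2.17% in the genome, and without ethanol replicate 3 there was 1 region of the reverse pattern, with 1.40% in the genome. Regions called in more dexamethasone than ethanol libraries numbered 21 (22.6%, against 19.7% of all regions), and those called in more ethanol libraries 13 (14.0%, against 22.5%).

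The first of the dexamethasone-only regions lay 2.82 kb downstream of the ZFP36 start, at chromosome 19, 39900122 to 39900483. Its folds were 2.42, 2.502 and 2.98 in the dexamethasone libraries, and its peaks were in the weaker part of the lists, at the 20.7th, 18.1st and 37.1st percentile. The second lay 63.5 kb upstream of the TNIP1 start, at chromosome 5, 150530555 to 150530851, with folds of 4.94, 5.47 and 4.36 and percentiles of 18.7, 26.5 and 11.3. Their summits lay within 32 and 18 bases of each other. TNIP1 also had a region 6.03 kb upstream, at chromosome 5, 150473048 to 150473450, with folds of 5.41, 6.17 and 5.24 with dexamethasone and a single ethanol call of 4.12, in replicate 3. A region 52.8 kb downstream was called in dexamethasone replicates 1 and 2, with folds of 4.38 and 4.35, and in no ethanol library. With the dexamethasone-only region, TNIP1 thus had 3 of the 5 regions called in at least 2 more dexamethasone than ethanol libraries (5.38% of 93, against 4.47% of all regions). These 3 were 16.7% of the 18 TNIP1 regions, a share that rests on few regions and was not tested. ZFP36 had the other 2 of the 5 (6.9% of its 29 regions), the second of them 83.1 kb downstream with folds of 3.63 and 4.22 in dexamethasone replicates 1 and 2. The BIRC3 region 1.24 kb downstream was the only one of the reverse kind (1.08%, against 4.80%).

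The strongest regions of the remaining windows overlapped between treatments. The TNIP1 region 70.1 kb upstream had 12.8 ± 2.1 with dexamethasone and 12.9 ± 1.1 with ethanol. The IRAK3 region 58.6 kb upstream had 16.3 ± 2.4 with dexamethasone and 15.1 ± 1.2 with ethanol (SD, n = 3 each). All 4 IRAK3 regions called in every library overlapped, with ratios from 0.986 to 1.19. The median ratio over the 52 regions was 0.972, against 1.00 over all regions called in every library.

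The regions nearest to the 100 kb limit lay at ZFP36. Just inside it, 99.2 kb from the start, a region was called in 2 dexamethasone and 3 ethanol libraries with mean folds of 4.54 and 3.96. Just outside it, at 100.1 kb, a region was called in all libraries with mean folds of 10.7 with dexamethasone and 9.86 with ethanol.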

How the data were processed

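DNase-seq was measured in A549 cells, with 3 dexamethasone and 3 ethanol libraries grouped by the labels. The submitters' processing notes name hg19, CASAVA 1.3, Bowtie, bedtools and MACS2 2.1.0, without settings. The deposited lists, 1 per library, give each peak's fold (a ratio over the caller's background), its p-value and q-value as −log10, a score that follows −log10 q and was not used, and a summit offset. The lowest −log10 q was 2.51 to 2.71. Depth is not given in the sources used here, so no counting interval can be given. No 2 lists were identical.

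Peaks were joined with pandas 2.3.3 in Python 3.11.15, and each library is represented by its peak of highest −log10 q per region. Distances run from the region centre to the gene start, along the gene's strand. Percentiles are ranks of −log10 q within a list. Libraries were compared per gene by an exact two-sided permutation test, and the joining and tests were checked on simulated data. Regions are named by their cover of the start, highest percentile, a lead of at least 2 libraries, or folds that do not overlap. Genes and lists were chosen with earlier results of these data known. Other genes of the pathway and motifs in peaks were not analysed, because hg19 annotation and sequence were not used here. Promoter windows are RefSeq's (GRCh38.p14), matched by symbol for 6 of 6 genes. The alternatives are given in the closing section.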

Additional observations from a re-analysis of the deposited data

How the results depend on the processing

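Differences are dexamethasone minus ethanol. The smallest possible exact permutation p is 0.1, so no alternative could fall below it. For bases covered, the exact permutation test reached p = 0.1 at IRAK3 with a 50 kb window and without ethanol replicate 1. It was also reached at TNFAIP3 with a 10 kb window, and at ZFP36 with a 50 kb window and without dexamethasone replicate 3. In these cases more bases were covered with dexamethasone. For regions called near a gene, no alternative reached it. Directions reversed for bases covered near BIRC3 (−79 with a 10 kb window) and NFKBIA (−209 with 50 kb and −35 with 10 kb). Leaving out 1 library, bases covered ranged from −6.67 to 289 for BIRC3 and from −210 to 527 for NFKBIA, and regions called from −0.667 to 1.33 for IRAK3 and from −1.33 to 0.667 for NFKBIA. The cause was not tested. Regions called with dexamethasone only numbered 1 with a 50 kb or 10 kb window and 2 to 4 without 1 library. Ethanol-only regions numbered 0 to 1 without 1 library. Regions with higher folds numbered 1, and with lower folds 2, of the 11 called in all libraries in the 10 kb window. The genome had 5.73% and 5.59%. Without 1 library there were 5 to 13 and 9 to 14, which fewer values to separate enlarge by construction. The genome then had 8.48% to 16.8% and 8.76% to 12.4% of the regions called in every remaining library.

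The labels do not say if equally numbered libraries form pairs. Deviations of calls from the treatment mean correlated by 0.103, 0.048 and 0.086 within numbers 1 to 3. Between unlike numbers the correlations were all negative, from −0.08 to −0.009, so each library correlated best with its own number. Deviations within a treatment cancel in each region, so positive values within numbers make the others negative on average. The negative sign is thus no separate sign of pairing. Not all within a number were above 0.1, the limit set for pairs, and the main tests were left unpaired. Under the replicate block, 5 of the 93 regions (5.38%) were called with dexamethasone only in at least 2 of 3 pairs with no pair reversed. With ethanol only there was 1 (1.08%), against 4.47% and 4.80% of all regions. A lead of at least 2 libraries meets this rule however the libraries are paired. These counts thus repeat the unpaired ones, and pairing could not change them. Of the 52 regions called in all libraries, 11 had higher and 14 lower folds in each pair. In the genome 14.0% and 13.9% of such regions did, and the shares were not tested. No paired p can fall below 0.25.

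Of the 13 regions named for non-overlapping folds or calls in 1 treatment only, 9 kept that status under every alternative, among them both TNFAIP3 regions and both dexamethasone-only regions. The others, 3 near NFKBIA or ZFP36 and 1 near BIRC3, lost it as stated. A smaller window, fewer libraries or the block can hardly end it by construction, so these show no stability.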
